A study of Mus musculus with 14 samples.

Results

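Developmental homeobox genes encode transcription factors that lay out the body plan and the organs of the embryo, and their RNA was followed here in male germ cells of newborn mice that lack 1 or both of the histone demethylases Jmjd1a and Jmjd1b. The genes were taken by name: symbols of the Hoxa, Hoxb, Hoxc and Hoxd clusters and of the Dlx, Lhx, sine oculis (Six2 and its relatives), Pitx, Otx, Msx, Pax, Prrx, Barhl, Barx, Irx, Meis, Tlx, Gbx, Emx, Alx and Cdx families followed by a number. Antisense and host transcripts and 3 genes (Lhx1, Pax7 and Otx2) were left out, and all Nkx symbols fell away because they carry a hyphen. This gave 101 genes of the 24340 symbols in the files, 39 of them Hox genes from 4 clusters and 62 from 17 other families. A name does not make a gene developmental in this tissue: some of the 101 were at many RPKM in germ cells of control animals, and most were near 0.

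Homeodomain proteins bind short AT-rich DNA motifs through a helix-turn-helix fold. Hox genes lie in clusters whose order along the chromosome follows the order of their use along the body axis, and in cells that do not use them they are classically held silent by Polycomb complexes under H3K27 methylation. Jmjd1a (gene symbol Kdm3a) and Jmjd1b (Kdm3b) remove mono- and dimethyl groups from lysine 9 of histone H3, a different repressive mark. Male germ cells around birth leave arrest and become spermatogonia, the dividing cells from which sperm are made.

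All mice were on the C57BL/6 background, cells came from testis, and P3 and P7 are postnatal days 3 and 7. The double knockout (DKO) carried Vasa-Cre with Jmjd1a-/- and Jmjd1b-/-, and was measured at P7 and at P3. The Jmjd1aKO (Vasa-Cre, Jmjd1a-/-, Jmjd1b-/+) and the Jmjd1bKO (Vasa-Cre, Jmjd1a-/+, Jmjd1b-/-) were measured at P3. The control (Ctrl) carried Vasa-Cre with 1 intact copy of each gene (Jmjd1a-/+, Jmjd1b-/+) and was measured at P7 and at P3, so each knockout comparison sets loss of the remaining copies against loss of 1 copy. The group labelled WT was measured at P3 and has no further genotype in the labels. Vasa-Cre drives recombination in germ cells. Each of the 7 groups had 2 libraries, and nothing in the labels says whether these came from separate animals or how the cells were isolated, so p-values measure the spread between libraries, which may be technical.

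Values are RPKM, reads scaled to transcript length and library size, as the authors deposited them. Kdm3a stood at 8.97 and 7.59 RPKM in P7 DKO, against 27.2 and 27.1 RPKM in P7 Ctrl. At P3 it stood at 12.1 and 14.3 RPKM in DKO, 9.83 and 9.84 RPKM in Jmjd1aKO, 26.1 and 25.4 RPKM in Jmjd1bKO, 28.4 and 26.3 RPKM in Ctrl and 44.1 and 45.2 RPKM in WT. Kdm3b stood at 6.49 and 6.73 RPKM in P7 DKO, against 17.3 and 16.1 RPKM in P7 Ctrl. At P3 it stood at 4.26 and 4.48 RPKM in DKO, 9.81 and 13.9 RPKM in Jmjd1aKO, 4.72 and 7.51 RPKM in Jmjd1bKO, 10.2 and 13.5 RPKM in Ctrl and 26.9 and 26.9 RPKM in WT. Each gene was thus lower than in Ctrl of the same age wherever the labels give it as -/-. Which exons were deleted is not given in the labels, so a whole-gene value is a partial check of the genotype. Depth, estimated from the smallest steps between values, ran from 13.7 to 48.9 M fragments per library, lowest in P3 WT (13.7 and 14.9 M fragments) and highest in P3 DKO (45.6 and 48.9 M fragments). At these depths 1 fragment on a transcript of 1500 nucleotides was worth 0.0136 to 0.0487 RPKM. Replicate 2 of P3 Jmjd1aKO and replicate 2 of P3 Jmjd1bKO stood apart: the summed level of 12 Sertoli cell markers was 740 and 914 RPKM there and 38.4 to 195 RPKM in the other libraries, and 7 Leydig cell markers summed to 37.7 and 37.4 RPKM against 2.29 to 5.64 RPKM. The germ cell markers were high in every library, with a sum of 953 to 1460 RPKM over 8 genes.

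The DNA just before the start of these genes was rich in CG. Of the 63 members with an entry among the RefSeq promoters of GRCm38.p6 (the mm10 assembly), 45 (71.4%) held at least 10 CG in the 250 bases before the start, against 38.2% of 27025 symbols, and the median number of CG was 13, against 6. The motif TAATTA, a core that many homeodomains bind and that reads the same on both strands, was present in 3 of the 63 (4.76%), close to the 4.9% of all symbols. The 250 bases before the start are shown for 4 members, each from the minus strand, because they cover both directions of change described below: Barhl2 and Pax8 were lower in P7 DKO, and Pax5 and Lhx4 were higher in P3 DKO. They are written in the direction of transcription with CG in capitals, and none overlaps an annotated exon.
Barhl2: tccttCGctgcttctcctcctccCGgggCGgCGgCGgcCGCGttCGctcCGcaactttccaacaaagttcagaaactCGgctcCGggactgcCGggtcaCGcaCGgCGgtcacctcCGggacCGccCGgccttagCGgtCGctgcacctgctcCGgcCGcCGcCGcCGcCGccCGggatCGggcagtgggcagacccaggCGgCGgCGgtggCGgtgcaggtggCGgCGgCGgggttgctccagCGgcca
Pax8: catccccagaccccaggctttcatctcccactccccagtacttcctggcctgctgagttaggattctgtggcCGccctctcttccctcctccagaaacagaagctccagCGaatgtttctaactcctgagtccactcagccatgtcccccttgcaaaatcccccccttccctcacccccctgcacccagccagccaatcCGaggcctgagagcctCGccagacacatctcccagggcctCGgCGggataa
Pax5: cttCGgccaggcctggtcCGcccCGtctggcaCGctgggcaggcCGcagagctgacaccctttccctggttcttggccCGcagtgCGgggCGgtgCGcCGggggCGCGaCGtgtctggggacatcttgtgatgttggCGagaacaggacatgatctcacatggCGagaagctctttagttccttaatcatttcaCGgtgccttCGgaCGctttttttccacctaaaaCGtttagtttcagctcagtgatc
Lhx4: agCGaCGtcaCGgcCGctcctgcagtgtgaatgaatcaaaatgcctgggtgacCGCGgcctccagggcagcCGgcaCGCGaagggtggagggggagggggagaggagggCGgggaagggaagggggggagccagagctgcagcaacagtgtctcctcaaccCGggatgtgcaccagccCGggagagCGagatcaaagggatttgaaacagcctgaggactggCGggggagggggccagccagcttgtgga
The Barhl2 window (chr5:106458167-106458416) held 36 CG and was 74.8% G or C. The Pax8 window (chr2:24475600-24475849) held 6 CG, the Pax5 window (chr4:44710695-44710944) held 19, and the Lhx4 window (chr1:155742028-155742277) held 14. The starts are RefSeq's and are not always those of GENCODE. The Lhx4 window lies inside the GENCODE gene (chr1:155698031-155751684), and the Pax5 window does not adjoin its GENCODE gene (chr4:44524757-44710487). Among these 4, both directions of change thus had a window with many CG, and Pax8, which fell, had few. Of the members with an entry, 5 of 7 higher in P3 DKO held at least 10 CG (minimum 5). Of those lower in P7 DKO, 5 of 6 did (minimum 6), so windows with few CG occurred in both directions. No TAATTA was found in these 4 windows, which says nothing of the factors that bind there.

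Most homeobox genes were scarcely transcribed. Of the 101 members, 66 averaged below 1 RPKM over the 14 libraries and 7 averaged at least 5 RPKM, while each was above 0 in at least 1 library. The exceptions were led by Prrx2, a paired-related homeobox gene of connective tissue and limb (mean of 23.8 RPKM), Dlx3, a Distal-less gene of placenta, skin and tooth (21.1 RPKM), and Lhx2, a LIM homeobox gene of forebrain, eye and hair follicle stem cells (13.3 RPKM). The next were Hoxb7, Barx1, Dlx4 and Hoxb4. On mm10, Prrx2 lies at chr2:30834972-30881251, Dlx3 at chr11:95120119-95125296, Dlx4 next to it at chr11:95140447-95146263 on the other strand, and Barhl2 at chr5:106452523-106458166. No other annotated exon overlaps those of Prrx2, Dlx3 or Barhl2, while an antisense gene overlaps Dlx4. In P3 WT Prrx2 stood at 23.9 and 17.1 RPKM, Dlx3 at 26.8 and 26.7 RPKM and Lhx2 at 10.5 and 10.2 RPKM, so these genes were on in the WT samples too. In the 2 libraries rich in Sertoli and Leydig markers Dlx3 was lower than in the other replicate of its group (19.9 against 22.0 RPKM in P3 Jmjd1aKO, and 22.1 against 31.0 RPKM in P3 Jmjd1bKO). Prrx2 was higher there (31.5 against 25.7 RPKM, and 34.9 against 29.1 RPKM), and so were Hoxd8, Hoxd9, Hoxd10, Lhx9, Meis1 and Six5. Hoxd9, for example, stood at 1.48 against 0.333 RPKM, and at 1.51 against 0.141 RPKM. Most members were lower there, 74 of 101 in P3 Jmjd1aKO and 77 of 101 in P3 Jmjd1bKO. The same count over all symbols was not made.

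**Figure D1:**
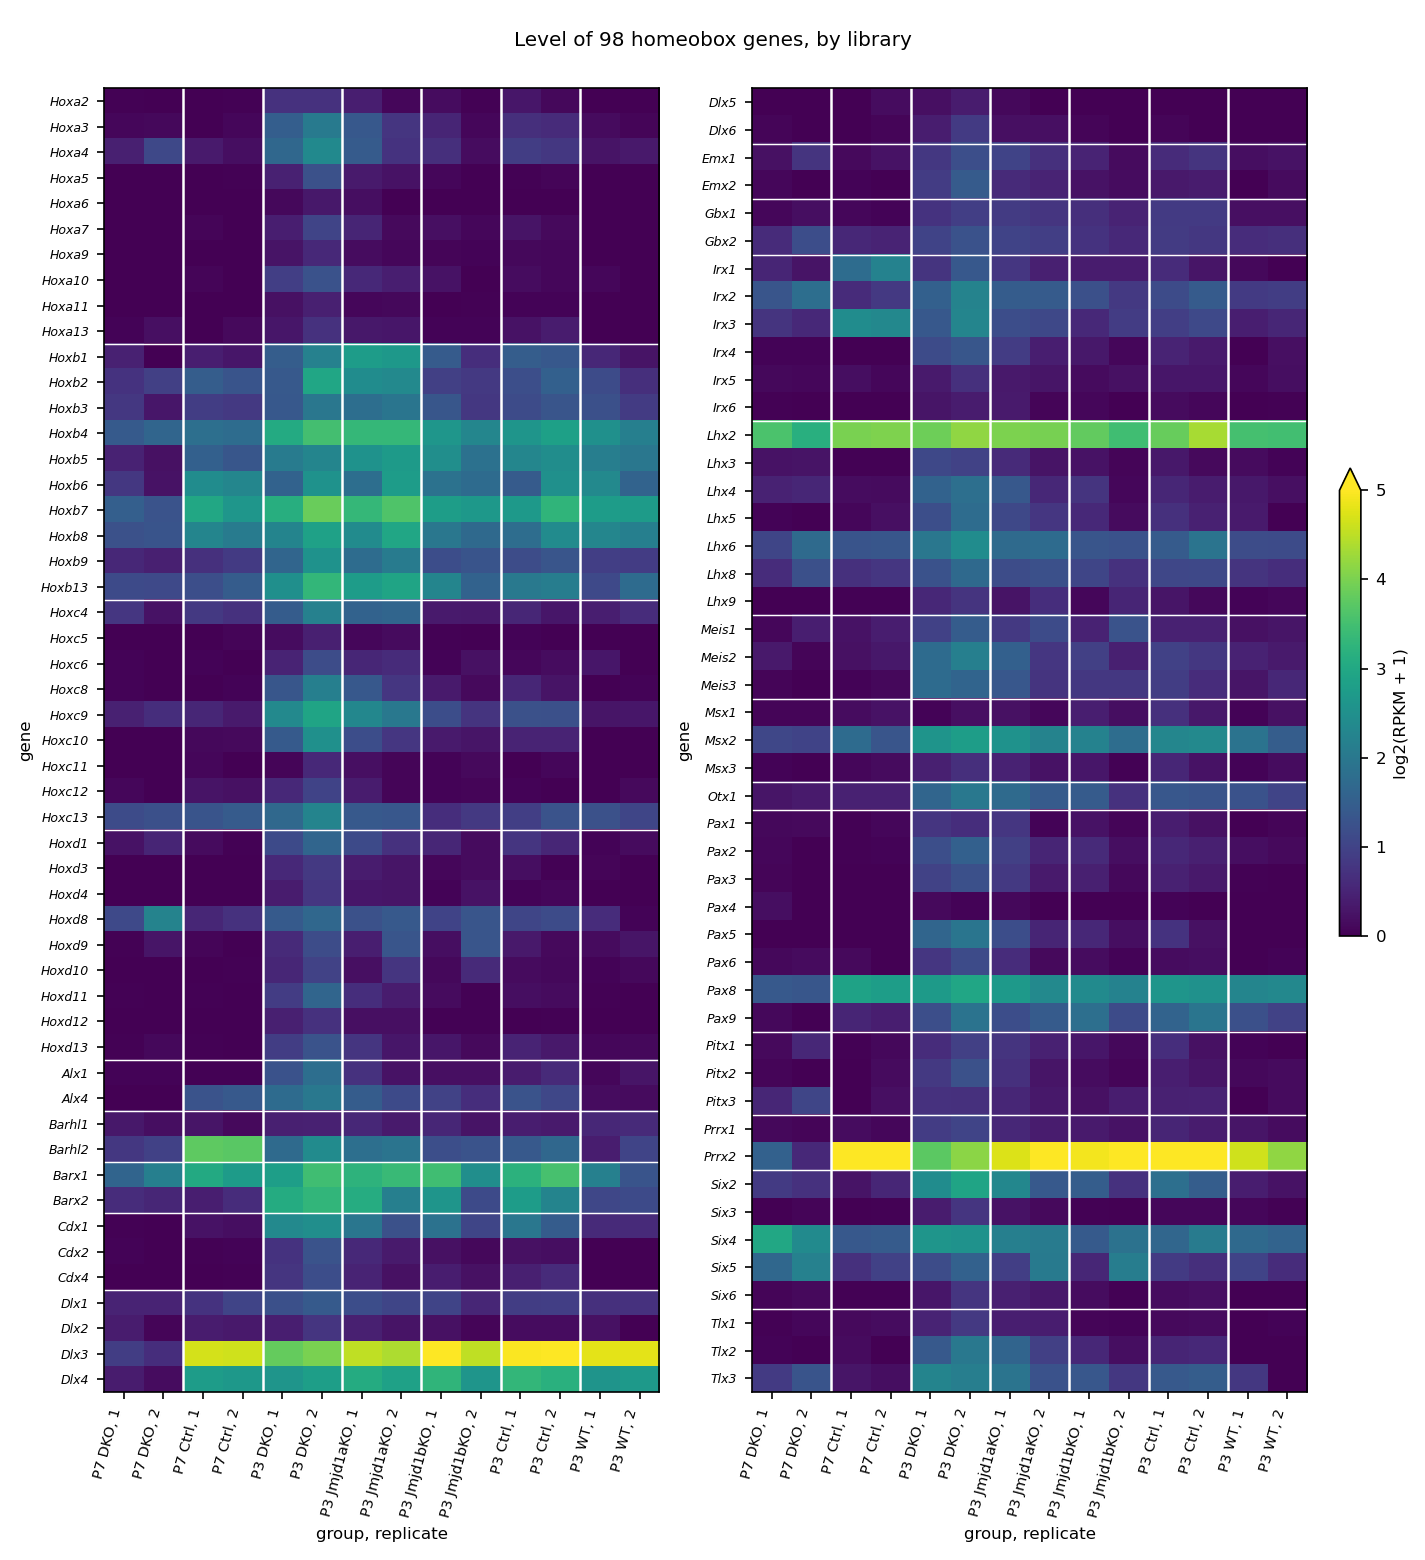
Level of 98 of the genes (rows, by family) in each of the 14 libraries (columns, by group and replicate) as log2(RPKM + 1), with colours capped at 5. Prrx2 and Dlx3 are bright in all groups except P7 DKO, and many rows that are dark elsewhere are lighter in the 2 P3 DKO columns.

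For the tests, log2(RPKM + 1) was fitted with limma over all 14 libraries for the 14772 genes that reached 1 RPKM in 2 or more libraries, with Benjamini-Hochberg adjustment over all of them and a threshold of 0.05. Log2 changes below are therefore of RPKM + 1, which understates the change of low genes. Of the 101 members 58 could be tested, and 17 of these reached the minimum only through the P3 DKO libraries. The 43 others were too low, among them all 3 Pitx genes and 8 of 11 HoxA genes, while all 10 HoxB genes were tested.

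In P7 DKO germ cells several of the most abundant homeobox genes, Prrx2, Dlx3 and Dlx4 first among them, were nearly lost. Of the 58 tested, 13 were lower and 3 higher than in P7 Ctrl. Over all genes tested 33.5% changed at P7, 16.1% lower and 17.4% higher, so the share of members called, 16 of 58, is no higher than the background. The median change of the 58 was -0.09, and that of all genes was 0.02.

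Prrx2 fell to 1.94 and 0.494 RPKM in P7 DKO, against 31.0 and 34.3 RPKM in P7 Ctrl. This was a log2 change of -4.00 (SE 0.29, adjusted p = 2.39e-05 in limma), the largest of the 58. The neighbours Dlx3 and Dlx4, a linked pair of Distal-less genes on chromosome 11, fell together. Dlx3 stood at 0.881 and 0.572 RPKM in P7 DKO and 24.7 and 23.9 RPKM in P7 Ctrl (-3.88, SE 0.17, adjusted p = 2.46e-06). Dlx4 stood at 0.296 and 0.129 RPKM in P7 DKO and 5.76 and 5.37 RPKM in P7 Ctrl (-2.44, SE 0.21, adjusted p = 5.29e-05). For all 3 genes both DKO libraries lay far below both Ctrl libraries. In estimated fragments, Dlx3 had 52 and 32 in P7 DKO and 1392 and 1537 in P7 Ctrl, and the estimated depths of these libraries were alike (22.85 and 21.6 M fragments in P7 DKO, 21.65 and 24.65 M fragments in P7 Ctrl). The remaining tested Dlx gene, Dlx1, averaged 0.412 RPKM in P7 DKO and 0.847 RPKM in P7 Ctrl and did not pass (adjusted p = 0.138).

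Barhl2, a BarH-like gene of the retina and nervous system, had 0.756 and 0.966 RPKM in P7 DKO, against 12.5 and 12.2 RPKM in P7 Ctrl (-2.84, SE 0.25, adjusted p = 7e-05). Its relative Barhl1 was at most 0.513 RPKM in the 14 libraries. Of the Iroquois genes, Irx3 and Irx1 fell and Irx2 rose. Irx3 had 0.688 and 0.485 RPKM in P7 DKO and 4.38 and 4.01 RPKM in P7 Ctrl (-1.71, SE 0.25, adjusted p = 0.000924). Irx1 had 0.429 and 0.202 RPKM in P7 DKO and 2.42 and 3.64 RPKM in P7 Ctrl (-1.6, SE 0.25, adjusted p = 0.00109). It reached the minimum for testing only through P7 Ctrl. Irx2, which lies beside Irx1 in the genome, moved the other way, with 1.48 and 2.49 RPKM in P7 DKO and 0.539 and 0.769 RPKM in P7 Ctrl (0.83, SE 0.26, adjusted p = 0.0318).

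Among the Hox genes the falls past the threshold were in the middle of the HoxB cluster. In P7 Ctrl the HoxA genes summed to 0.45 and 0.341 RPKM and the HoxD genes to 0.642 and 0.693 RPKM. Those clusters thus had little room to show a fall. Hoxb5, Hoxb6, Hoxb7 and Hoxb8 fell, 4 of the 10 HoxB genes, and the cluster summed to 9.52 and 8.05 RPKM in P7 DKO and 24.5 and 21.3 RPKM in P7 Ctrl. Hoxb7 had 1.87 and 1.44 RPKM in P7 DKO and 6.97 and 5.19 RPKM in P7 Ctrl (-1.41, SE 0.26, adjusted p = 0.00312). Hoxb6 had the largest change and the largest SE of these 4 genes (-1.84, SE 0.47, adjusted p = 0.0138). Hoxb5 changed by -1.08 (SE 0.21, adjusted p = 0.00347) and Hoxb8 by -0.91 (SE 0.27, adjusted p = 0.0267). The annotation has an antisense gene over Hoxb5, and whether the authors counted by strand is not given in the sources used here. Hoxb1, Hoxb2, Hoxb3, Hoxb4, Hoxb9 and Hoxb13 did not pass, with changes of -0.53 to -0.13. In the other clusters Hoxd8 alone passed, and it rose (1.16 and 3.73 RPKM in P7 DKO, 0.456 and 0.638 RPKM in P7 Ctrl, 1.05, SE 0.33, adjusted p = 0.0339).

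The other genes that fell were Pax8, Alx4 and Lhx2. Pax8, a paired-box gene of thyroid, kidney and the genital ducts, had 1.62 and 1.53 RPKM in P7 DKO and 6.34 and 5.90 RPKM in P7 Ctrl (-1.47, SE 0.15, adjusted p = 0.000136). Alx4, an aristaless-like gene of skull and limb, had 0.00798 and 0.00833 RPKM in P7 DKO, less than 1 fragment on a transcript of 1500 nucleotides, and 1.43 and 1.64 RPKM in P7 Ctrl (-1.33, SE 0.18, adjusted p = 0.000652). Lhx2 kept most of its level, with 11 and 7.88 RPKM in P7 DKO and 15 and 15.3 RPKM in P7 Ctrl (-0.64, SE 0.20, adjusted p = 0.0329). Six4, a sine oculis gene active in muscle and kidney, had the strongest rise, with 7.02 and 4.26 RPKM in P7 DKO and 1.61 and 1.71 RPKM in P7 Ctrl (1.29, SE 0.23, adjusted p = 0.00248). Six5 and Six2 were on the same side (1.11 and 0.38) and did not pass.

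**Figure D2:**
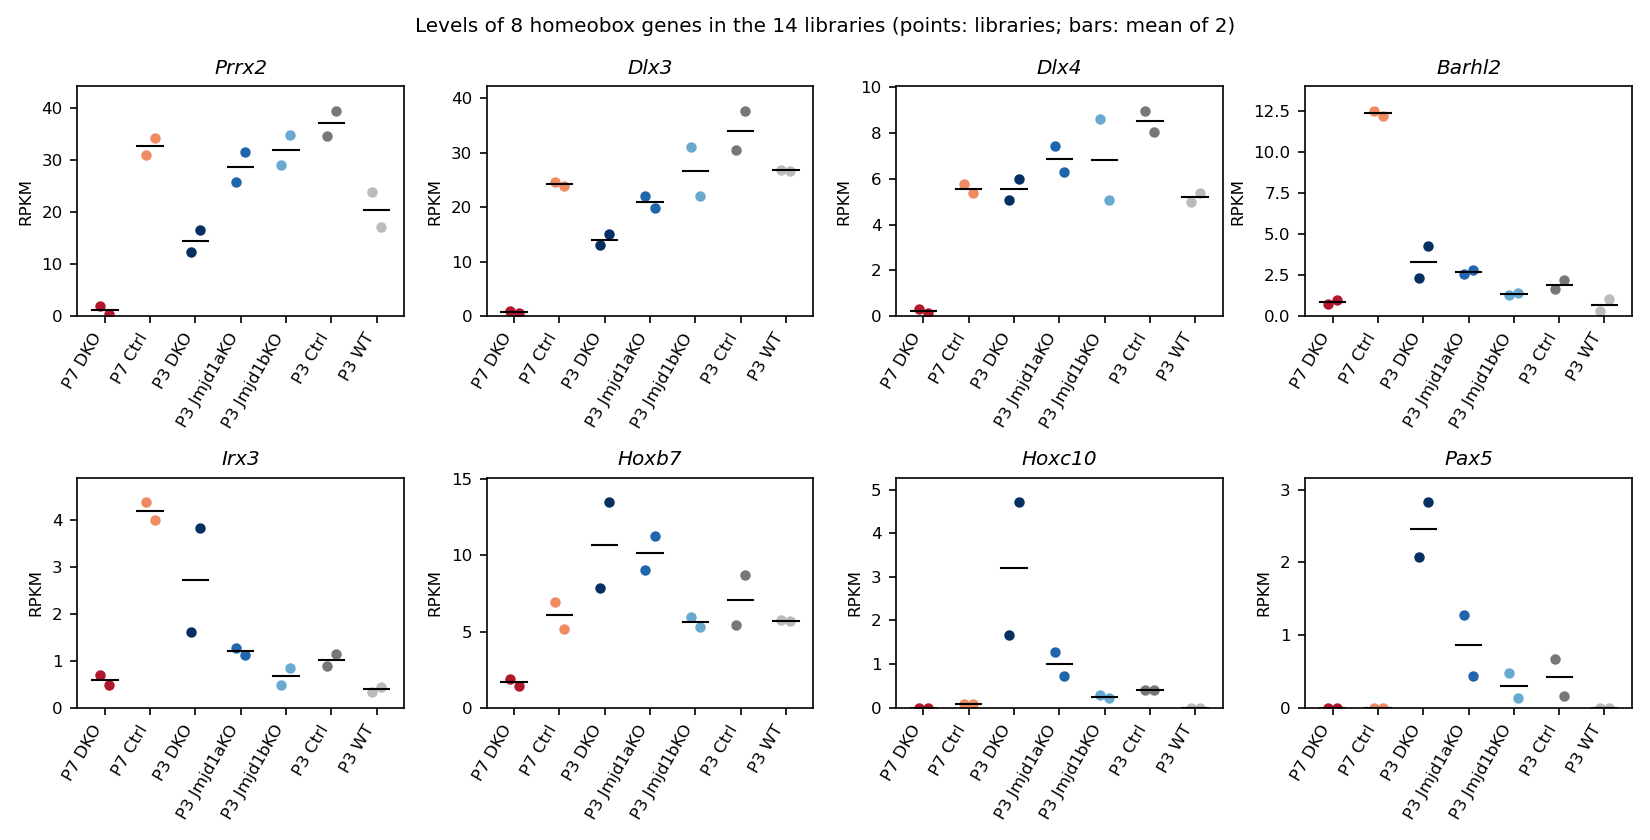
RPKM (vertical axis, from 0) of 8 homeobox genes in the 14 libraries by group, with a point for each library and a bar at the mean of 2. Prrx2, Dlx3, Dlx4, Barhl2, Irx3 and Hoxb7 are near the floor in P7 DKO and high in P7 Ctrl, while Hoxc10 and Pax5 are highest in P3 DKO and at 0 or nearly so at P7.

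The calls of Prrx2, Dlx3, Dlx4, Barhl2, Irx1, Irx3, Pax8, Alx4, Hoxb5, Hoxb7 and Six4 held under all 12 alternative settings tried, and those of Lhx2, Hoxb6, Hoxb8, Hoxd8 and Irx2 ended in 3 to 6 of them. Markers of other cells moved in the same comparison, though none of the 12 Sertoli markers passed (sum of 102 and 195 RPKM in P7 DKO and 133 and 150 RPKM in P7 Ctrl). Endothelial markers summed to 2.32 and 1.5 RPKM in P7 DKO and 9.32 and 9.38 RPKM in P7 Ctrl, with Kdr and Cdh5 lower, 2 of 5 tested. Stromal and peritubular markers summed to 6.96 and 6.26 RPKM in P7 DKO and 19.1 and 19.1 RPKM in P7 Ctrl. Of these, Col1a1 and Pdgfra were lower, 2 of 9 tested. The stromal markers Lum and Tcf21 were at 0 in both P7 DKO libraries, and Tcf21 was at 0 in both P7 Ctrl libraries too. Of 8 germ cell markers, 4 fell and 2 rose, and the undifferentiated spermatogonia markers Gfra1 (25.2 RPKM in P7 DKO and 125 RPKM in P7 Ctrl, -2.41) and Zbtb16 (22.7 and 82.7 RPKM, -1.94) were among those that fell. The part of these shifts in the homeobox changes was not tested, and in such bulk samples fewer cells of a type cannot be told apart from less RNA per cell.

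At P3 the picture was another one. In P3 DKO germ cells 14 of the 58 tested genes were higher than in P3 Ctrl and 2 were lower, where over all genes tested 2.18% were higher and 2.29% lower (4.47% in all). The median change of the 58 was 0.68, and that of all genes was 0.01. Because 17 members could be tested only because they were high in P3 DKO, 11 of the 14 among them, these figures over the tested genes are no measure of the family. Without the filter, on all 101 members, 39 were higher and 2 lower, where 4.83% of 21636 symbols were higher and 2.29% lower.

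The 2 that fell were Prrx2 and Dlx3, which fell further at P7. Prrx2 had 12.4 and 16.5 RPKM in P3 DKO and 34.6 and 39.5 RPKM in P3 Ctrl (-1.31, SE 0.29, adjusted p = 0.0384). Dlx3 had 13.1 and 15 RPKM in P3 DKO and 30.4 and 37.7 RPKM in P3 Ctrl (-1.21, SE 0.17, adjusted p = 0.0137). The groups did not overlap for either gene. Dlx4 lay lower without passing, at 5.08 and 6.00 RPKM in P3 DKO and 8.98 and 8.05 RPKM in P3 Ctrl (-0.54, adjusted p = 0.14). Barhl2, lower in DKO than in Ctrl at P7, was not lower at P3, with 2.31 and 4.29 RPKM in P3 DKO and 1.63 and 2.19 RPKM in P3 Ctrl (0.53, adjusted p = 0.229).

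Of the genes that rose at P3, 7 were Hox genes, and 5 of those lay in the HoxC cluster. All 5 tested HoxC genes rose, as did 2 of the 3 tested HoxA genes, and none of the 10 HoxB or 3 HoxD genes passed. Hoxc10, a posterior gene of hindlimb and lumbar cord, had 1.67 and 4.71 RPKM in P3 DKO and 0.408 and 0.406 RPKM in P3 Ctrl (1.47, SE 0.29, adjusted p = 0.0317). Hoxc9, used in the thorax, had 4.13 and 6.61 RPKM in P3 DKO and 1.36 and 1.33 RPKM in P3 Ctrl (1.41, SE 0.22, adjusted p = 0.0183). Hoxc4 rose by 1.41 (SE 0.25, adjusted p = 0.0239), Hoxc8 by 1.34 (SE 0.27, adjusted p = 0.0317) and Hoxc13 by 0.87 (SE 0.20, adjusted p = 0.0453), so both ends of the cluster were among them. Hoxa3, an anterior gene of the pharynx, rose by 1.14 (SE 0.24, adjusted p = 0.0356). The HoxC genes summed to 12.4 and 25.2 RPKM in P3 DKO and 3.69 and 3.78 RPKM in P3 Ctrl, and the HoxA genes to 8.16 and 15.3 RPKM and 2.66 and 2.25 RPKM. The HoxD genes, most of them untested, summed to 6.70 and 12.1 RPKM in P3 DKO and 2.86 and 2.29 RPKM in P3 Ctrl. The annotation places exons of Hoxc10 and Hoxc5 over each other on 1 strand and antisense transcripts over Hoxa3, so reads of these genes may be shared.

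**Figure D3:**
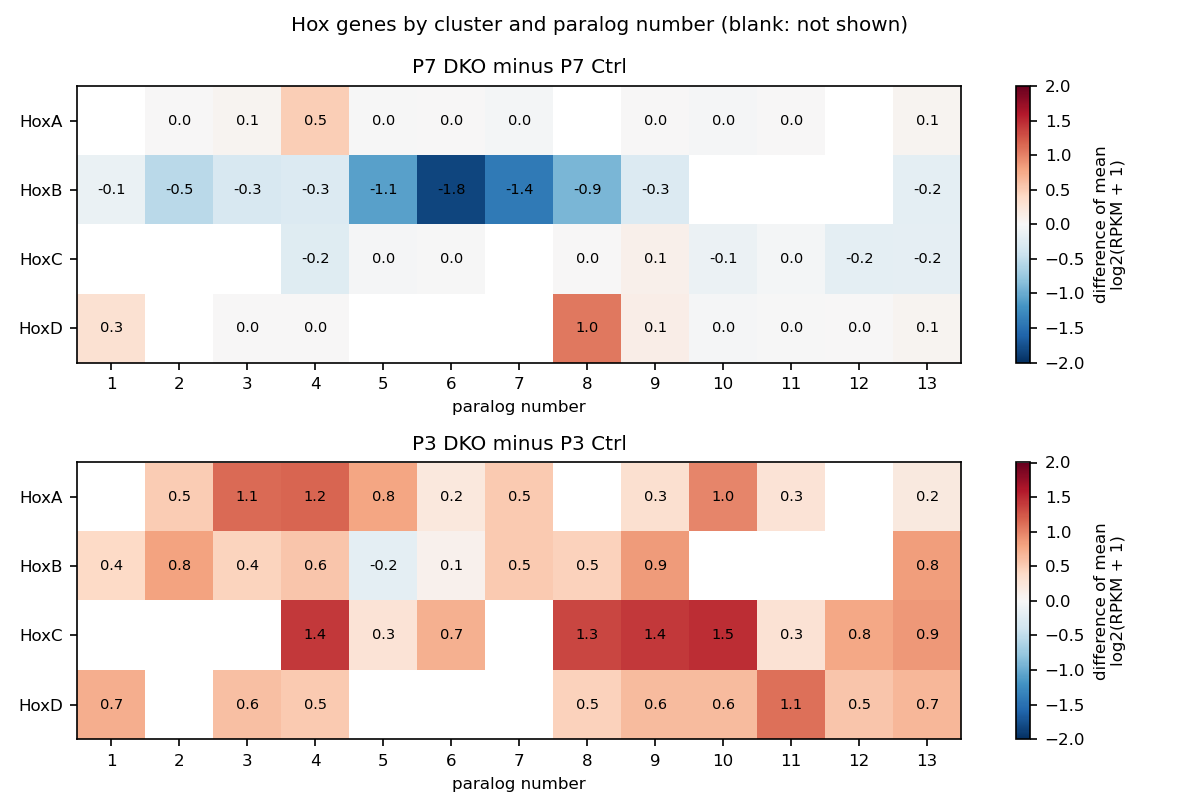
Difference of mean log2(RPKM + 1) for 38 Hox genes by cluster (rows) and paralog number (columns), P7 DKO minus P7 Ctrl above and P3 DKO minus P3 Ctrl below, red for higher and blue for lower in DKO. At P7 the darkest blue squares are Hoxb5 to Hoxb8, and at P3 the HoxC row holds the darkest red, up to 1.47 for Hoxc10.

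The other 7 genes that rose at P3 came from 6 families. Pax5, the B cell and midbrain paired-box gene, had 2.08 and 2.83 RPKM in P3 DKO and 0.671 and 0.163 RPKM in P3 Ctrl (1.30, SE 0.25, adjusted p = 0.0310), and was listed at 0 in all 4 P7 libraries and in both P3 WT libraries. The annotation has an antisense gene over Pax5. Lhx4, of pituitary and motor neurons, had 1.98 and 2.53 RPKM in P3 DKO and 0.450 and 0.297 RPKM in P3 Ctrl (1.24, SE 0.28, adjusted p = 0.0391). Tlx2, of the enteric nervous system, rose by 1.14 (SE 0.25, adjusted p = 0.0384), and Alx1, of the face, by 1.05 (SE 0.21, adjusted p = 0.0318). Meis3, which encodes a DNA-binding partner of Hox proteins, rose by 0.91 (SE 0.21, adjusted p = 0.0399). Pax2, of kidney and eye, rose by 0.88 (SE 0.20, adjusted p = 0.0412), and Irx4, of the heart ventricle, by 0.81 (SE 0.19, adjusted p = 0.0418). These are small amounts of RNA: the group means of the 14 genes in P3 DKO ran from 1.37 RPKM for Irx4 to 5.37 RPKM for Hoxc9, below the 14.4 RPKM that Prrx2 kept in the same cells.

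The shift at P3 reached well beyond the genes that passed. In 81 of the 101 members (80.2%) both P3 DKO libraries lay above both P3 Ctrl libraries, against 34.4% of all symbols above 0 in some library. Among the 66 members with a mean below 1 RPKM it was 59 (89.4%), against 45.9% of all 8173 symbols at that level. Members at 1 RPKM or more numbered 55 and 72 in P3 DKO, 32 and 34 in P3 Ctrl, and 16 and 19 in P7 DKO. The median of the 66 low members was 0.679 and 1.22 RPKM in P3 DKO and 0.309 and 0.197 RPKM in P3 Ctrl, while that of all low symbols was 0.197 and 0.178 RPKM and 0.135 and 0.0823 RPKM. Low symbols as a whole were thus also higher in P3 DKO than in P3 Ctrl.

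The 2 P3 DKO libraries did not agree in size. Replicate 2 was above replicate 1 in 94 of the 101 members, with a median log2 difference of 0.382. This count was not made over all symbols. The median of all low symbols was 0.197 RPKM in replicate 1 and 0.178 RPKM in replicate 2. Each of the 16 calls at P3 ended in 4 to 7 of the 12 alternative settings. In all, 26 members passed (23 higher, 3 lower) when the libraries rich in Sertoli markers were left out of the fit, and 0 passed without P3 DKO replicate 2, 8 without P3 DKO replicate 1, and 2 and 0 when replicates 1 and 2 of P3 Ctrl were left out in turn. None of the 16 changed direction in these settings. Of other cell markers, stromal and peritubular genes summed to 22.6 and 22.3 RPKM in P3 DKO and 13.7 and 11.6 RPKM in P3 Ctrl with none of 9 past the threshold, and Sertoli genes to 60.3 and 65.1 RPKM and 48.3 and 38.4 RPKM with none of 12. Endothelial genes summed to 22.1 and 22.8 RPKM in P3 DKO and 28.6 and 17.1 RPKM in P3 Ctrl, of which Tek rose (3.76 RPKM in P3 DKO and 1.33 RPKM in P3 Ctrl, 1.03), and so did the germ cell gene Dppa3 (5.35 and 1.36 RPKM, 1.43). The part of these markers in the homeobox changes was not tested. The share of symbols at 0 was 15.8 and 16.4% in P3 DKO and 18.2 and 19.9% in P3 Ctrl, and the effect of depth on the low genes was not tested.

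**Figure D4:**
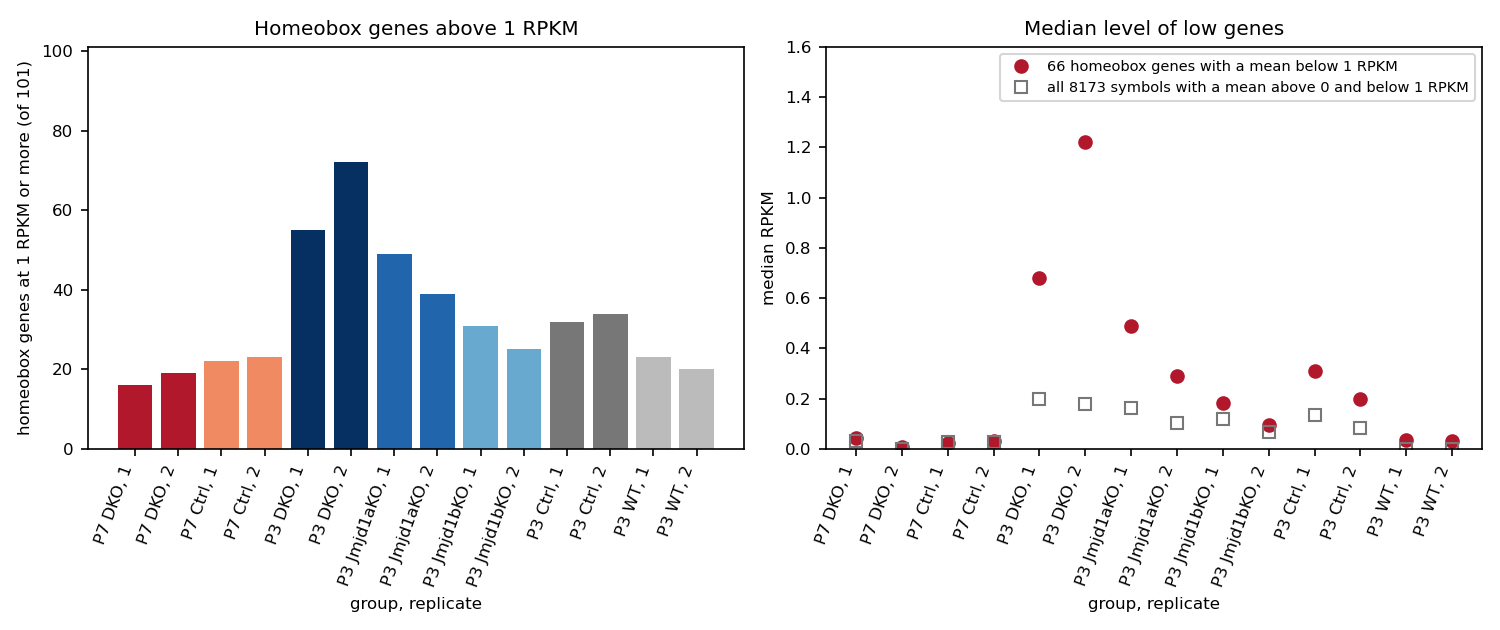
Left, number of the 101 homeobox genes at 1 RPKM or more in each library. Right, median RPKM in each library of the 66 homeobox genes with a mean below 1 RPKM (filled) and of all 8173 symbols with such a mean (open). P3 DKO replicate 2 stands highest for the homeobox genes (72 genes, median of 1.22 RPKM), while all low symbols are at most 0.197 RPKM.

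No member was past the threshold as higher at both ages. Those that rose at P7, Six4, Irx2 and Hoxd8, also lay above P3 Ctrl in P3 DKO (0.72, 0.6 and 0.46) without passing. Of the 16 members past the threshold at P3, Prrx2 and Dlx3 also fell at P7, and none of the 14 that rose at P3 passed at P7. Whether the DKO change differed between the ages was tested directly as the change at P7 minus the change at P3. In this test 21 of 58 members passed, 21 with a more negative change at P7 and 0 with a more positive one, where over all genes 10.7% and 12.2% did so (22.9% in all). The difference was largest for Barhl2 (-3.37, SE 0.36, adjusted p = 0.000691), then Prrx2 (-2.69, SE 0.41, adjusted p = 0.00244) and Dlx3 (-2.66, SE 0.24, adjusted p = 0.000315). The median of the 58 was -0.89, and that of all genes was -0.03. Of the 21, 8 could be tested only because they were high in P3 DKO, and Irx1 only through P7 Ctrl. Without the filter 38 of 101 passed, all with a more negative change at P7, where 8.62% of 21636 symbols did so and 7.52% had a more positive one. The 21 included genes that fell at P7 and did not pass at P3, such as Irx3 and Alx4, and genes that rose at P3 and were at or near 0 in all 4 P7 libraries, such as Hoxc10 and Pax5.

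**Figure D5:**
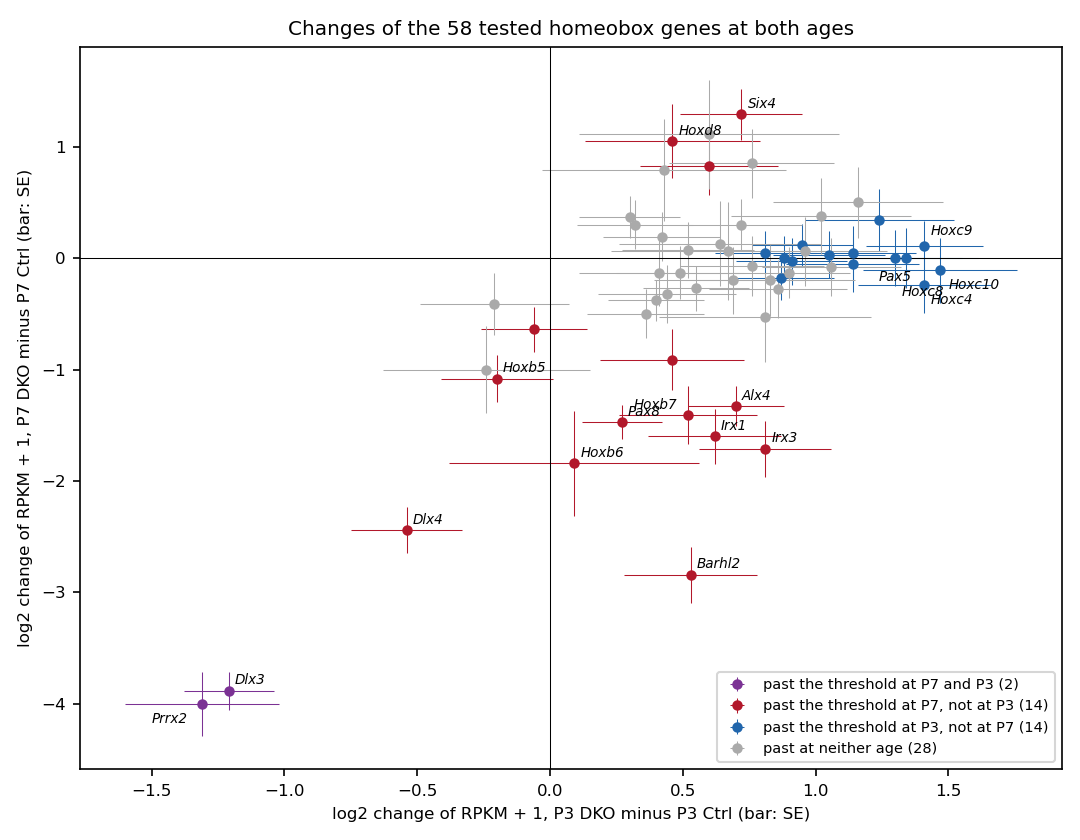
Log2 change of RPKM + 1 of the 58 tested genes in P7 DKO against P7 Ctrl (vertical axis) and in P3 DKO against P3 Ctrl (horizontal axis), with SE bars and colours for the genes past the threshold. Prrx2 and Dlx3 lie at the lower left as the 2 genes past the threshold at both ages, Barhl2, Irx1 and Irx3 below the middle, and the HoxC genes at the right near the zero line.

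Seen across age within the double knockout, most homeobox genes were lower at P7. Of the 58 tested, 49 were lower in P7 DKO than in P3 DKO and 0 higher, where over all genes 30.5% were lower and 27.8% higher (58.3% in all), with a median of -1.40 against -0.03. The 17 members tested only through P3 DKO had to stand high there. Without the filter 85 of 101 were lower and 0 higher, where 30.8% of 21636 symbols were lower and 19% higher. Of all 101, both P7 DKO libraries lay below both P3 DKO libraries in 92 (91.1%), against 46.2% of all symbols. Among the first 25 by size were Dlx3 (-3.13, SE 0.17, adjusted p = 9.45e-06), Prrx2 (-2.87), Barx2 (-2.60), Dlx4 (-2.43), Cdx1 (-2.39), Hoxb7 (-2.10), Hoxc9 (-2.09), Hoxc10, Six2, Alx4, Hoxb5, Hoxb13, Pax5, Meis2, Hoxb4, Hoxc8, Hoxa3, Tlx2, Msx2, Meis3, Hoxb1, Hoxb9, Hoxb6 and Pax9. Barx2, a Bar-class gene of muscle and epithelia, had 0.553 and 0.446 RPKM in P7 DKO and 7.45 and 8.73 RPKM in P3 DKO. Cdx1, a caudal gene that acts upstream of Hox genes in the embryo's axis, had 0.0258 and 0 RPKM in P7 DKO and 4.09 and 4.52 RPKM in P3 DKO. Barhl2 also fell (-1.17, adjusted p = 0.0031). Endothelial markers summed to 2.32 and 1.5 RPKM in P7 DKO and 22.1 and 22.8 RPKM in P3 DKO, with 5 of 5 tested lower (median -1.64). Stromal and peritubular markers summed to 6.96 and 6.26 RPKM in P7 DKO and 22.6 and 22.3 RPKM in P3 DKO, with 2 of 9 tested lower (median -1.02). The part of these markers in the homeobox changes was not tested. The estimated depth was 22.85 and 21.6 M fragments in P7 DKO and 45.6 and 48.9 M fragments in P3 DKO, and its part in the levels of the low genes was not tested.

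In control animals, too, most homeobox genes lay lower at P7. The P7 Ctrl libraries were shallower, at an estimated 21.65 and 24.65 M fragments against 38.0 and 44.25 M fragments in P3 Ctrl. In P7 Ctrl 26.9 and 26.8% of symbols were at 0, against 18.2 and 19.9% in P3 Ctrl. The part of depth in the levels of the low genes was not tested. In 78 of 101 members (77.2%) both P7 Ctrl libraries lay below both P3 Ctrl libraries, against 39% of all symbols, and in 8 (7.92%) above, against 26% of all symbols. By the test, 3 members were higher and 12 lower in P7 Ctrl of 58, where 9.94% of all genes were higher and 13.4% lower (23.3% in all). The 3 that rose were Barhl2, with 12.5 and 12.2 RPKM in P7 Ctrl and 1.63 and 2.19 RPKM in P3 Ctrl (2.20, SE 0.25, adjusted p = 0.00157), Irx1 (1.55, SE 0.25, adjusted p = 0.00421) and Irx3 (1.36, SE 0.25, adjusted p = 0.00745). Irx1 reached the minimum for testing only through P7 Ctrl, and this comparison shares its P7 Ctrl libraries with that of P7 DKO against P7 Ctrl. In P7 DKO Barhl2 stood at 0.756 and 0.966 RPKM. Irx1 had 0.429 and 0.202 RPKM in P7 DKO and 0.532 and 0.209 RPKM in P3 Ctrl. Irx3 had 0.688 and 0.485 RPKM in P7 DKO and 0.89 and 1.15 RPKM in P3 Ctrl. For these 3 genes the gap between DKO and Ctrl at P7 thus includes the rise in Ctrl. Those that fell were Barx2 (-1.98, adjusted p = 0.0131), Cdx1 (-1.50, adjusted p = 0.00985), Pax9, Six2, Tlx3, Hoxb1, Hoxb5, Hoxb4, Otx1, Msx2, Hoxc9 and Meis3, by 1.30 or less for the last 10. Prrx2 and Dlx3 did not pass (-0.18 and -0.46, adjusted p = 0.688 and 0.0717). Leaving out 1 of the 4 libraries left 2 to 5 calls. Endothelial markers summed to 9.32 and 9.38 RPKM in P7 Ctrl and 28.6 and 17.1 RPKM in P3 Ctrl, with 3 of 5 tested lower and 1 higher, and their part in the homeobox changes was not tested.

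Loss of 1 demethylase had no homeobox effect past the threshold. In P3 Jmjd1aKO against P3 Ctrl 0 of 58 passed in limma (0.0338% of all genes did), and 11 had an unadjusted p under 0.05. The 3 with the lowest p were Hoxc4, with 1.99 and 2.11 RPKM in P3 Jmjd1aKO and 0.442 and 0.230 RPKM in P3 Ctrl (1.2, SE 0.25, adjusted p = 0.234), Hoxb1, with 5.82 and 5.31 RPKM and 1.78 and 1.61 RPKM (1.28, adjusted p = 0.274), and Hoxc9 (0.93, adjusted p = 0.275). The median over the 58 was 0.27, against 0 for all genes, and 47 of 101 members (46.5%) lay above P3 Ctrl in both libraries, against 17.2% of all symbols. Prrx2 and Dlx3 changed by -0.37 and -0.67 without passing (adjusted p = 0.69 and 0.313).

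In P3 Jmjd1bKO against P3 Ctrl 0 of 58 passed in limma (0.0203% of all genes did) and 1 had an unadjusted p under 0.05. Kdm3b itself, -/- by the labels, changed by -0.87 (SE 0.21, adjusted p = 0.965 in limma) and did not pass either. The 0 of 58 thus does not show an absence of effect. The 3 with the lowest p were Lhx2 (-0.47), Dlx3 (-0.36) and Alx4 (-0.35), each at an adjusted p of 0.965. The values leaned the other way from Jmjd1aKO, with a median of -0.25 against -0.01 for all genes, and 34 of 101 members (33.7%) lay below P3 Ctrl in both libraries, against 11.5% of all symbols. Set directly against each other, a comparison added after these values were seen, P3 Jmjd1aKO and P3 Jmjd1bKO differed past the threshold in 0 of 58 members (0.0338% of all genes), with 23 at an unadjusted p under 0.05 and a median of 0.48. Hoxb1 had the lowest p (5.82 and 5.31 RPKM in P3 Jmjd1aKO, 1.70 and 0.584 RPKM in P3 Jmjd1bKO, 1.67, SE 0.30, adjusted p = 0.18). In 61 of 101 members (60.4%) both P3 Jmjd1aKO libraries lay above both P3 Jmjd1bKO libraries, against 16.1% of all symbols. Both groups include a library rich in Sertoli markers, so each mean holds 1 such library.

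Against P3 Jmjd1aKO 0 of 58 passed in limma (0.0338% of all genes), with 21 at an unadjusted p under 0.05 and a median of 0.31. Among the lowest p were those of Alx1 (1.40 and 2.5 RPKM in P3 DKO, 0.636 and 0.190 RPKM in P3 Jmjd1aKO, 1.05, SE 0.21, adjusted p = 0.389) and Pax5 (0.93, adjusted p = 0.402), and a miss of the threshold does not show that the groups are alike. Prrx2 lay at 12.4 and 16.5 RPKM in P3 DKO and 25.7 and 31.5 RPKM in P3 Jmjd1aKO (-0.94, SE 0.29, adjusted p = 0.406). Against P3 Jmjd1bKO 29 were higher and 2 lower, where over all genes 8.63% were higher and 7.85% lower (16.5% in all). Prrx2 (-1.10, adjusted p = 0.0319) and Dlx3 (-0.86, adjusted p = 0.0156) were the 2 lower ones. Among the first 24 that rose, by size, were Hoxc9 (1.68, SE 0.22, adjusted p = 0.00792), Hoxc10 (1.64), Hoxa4 (1.6), Six2 (1.58), Hoxc8, Hoxa3, Hoxc4, Pax5, Alx1, Tlx2, Lhx4, Meis2, Hoxc13, Lhx5, Tlx3, Irx3, Alx4, Irx4, Hoxd1, Pax2, Six4 and Lhx6. Without P3 Jmjd1bKO replicate 2, the library rich in Sertoli markers, the count was 1 in place of 31, and without P3 DKO replicate 2 it was 0. The 17 members tested only through P3 DKO, Alx1 and Pax5 among them, had to stand high there. The figures over the tested genes, against either single knockout, are thus no measure of the family. Without the filter, against P3 Jmjd1bKO, 57 of 101 were higher and 2 lower, where 10.6% of 21636 symbols were higher and 5.4% lower. These comparisons share the P3 DKO or the P3 Ctrl libraries, so their lists are not independent.

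Between P3 Ctrl and P3 WT 1 member passed. Alx4 had 1.44 and 1.08 RPKM in P3 Ctrl and 0.120 and 0.109 RPKM in P3 WT (1.02, SE 0.18, adjusted p = 0.046), where 0.406% of all genes were higher and 0.298% lower (0.704% in all). In 79 of 101 members (78.2%) both P3 Ctrl libraries lay above both P3 WT libraries, against 34.7% of all symbols. The P3 WT libraries were the shallowest, with 29.3 and 30% of symbols at 0 against 18.2 and 19.9% in P3 Ctrl, and the part of depth was not tested. Prrx2 and Barhl2 did not pass (0.84 and 0.82, adjusted p = 0.116 and 0.0969). Leaving out any 1 of the 4 libraries ended the call of Alx4.

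Genes that work with homeodomain proteins or govern them were counted in the same comparisons, where 4.47% of all genes passed in P3 DKO and 33.5% in P7 DKO. Lists of this size hold few calls at the first of these shares, so the counts at P3 say nothing particular of them. Of 7 tested cofactors of the PBC and TALE class, 0 changed in P3 DKO and 3 fell in P7 DKO. Among these were Pbx2 (65.7 RPKM in P7 DKO, 112 RPKM in P7 Ctrl, -0.76, SE 0.15, adjusted p = 0.00415) and Tgif2 (-0.40, adjusted p = 0.0205). The median of the 7 was -0.40 at P7, and Pbx proteins are the partners with which many Hox proteins bind DNA. Of 29 genes of the Polycomb complexes, the repressors of Hox genes, 0 changed in P3 DKO (median -0.10), and in P7 DKO 7 rose and 7 fell (median -0.11). Cbx7, a chromodomain reader of H3K27 methylation, fell to 8.29 RPKM in P7 DKO, against 24.5 RPKM in P7 Ctrl (-1.47, SE 0.13, adjusted p = 7.6e-05), with Scmh1 (-0.92) and Phc1 (-0.90) next. Of 15 Trithorax and COMPASS genes and H3K27 demethylases, which oppose Polycomb, Wdr5 fell in P3 DKO (-0.42, adjusted p = 0.049), and Setd1b (-1.48) and Kmt2d (-0.73) fell in P7 DKO. Of 18 tested genes of the retinoic acid pathway, which switches on Hox genes in the embryo and spermatogonial differentiation in the testis, Dhrs3, a retinal reductase, fell at P3 (3.13 RPKM in P3 DKO, 7.93 RPKM in P3 Ctrl, -1.10, adjusted p = 0.0214). At P7 4 rose and 4 fell, with Dhrs3 (-1.92) and Aldh1a3 (-1.88) down and Stra8, induced by retinoic acid, up (224 RPKM in P7 DKO, 58.5 RPKM in P7 Ctrl, 1.88, adjusted p = 0.00091).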

How the data were processed

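RNA of postnatal male germ cells was sequenced in 14 libraries, 2 in each of 7 groups, with a stranded mRNA kit per the labels' protocols. The submitters' processing notes name TopHat2 2.1.1, Cufflinks 2.1.1 and the mm10 assembly. The annotation and whether counting used strand are not given in the sources used here. The authors deposited RPKM per gene symbol, with no read counts, so no count model was used.

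Members and gene lists were chosen with earlier results of these data known. Levels were taken as log2(RPKM + 1), and the 14772 of 24340 symbols with at least 1 RPKM in at least 2 libraries were fitted with limma 3.58.1 in R 4.3.3, with 1 coefficient per group, a trended prior and 7 residual degrees of freedom. Each comparison had its own Benjamini-Hochberg adjustment, with a threshold of 0.05, and the procedure was tested on simulated data. There were 10 planned comparisons and 1 added. The text names every member past the threshold, up to 25 by size, and where none passed the 3 with the lowest p. A few genes are counted but not reported here by name. Replicates correlated at 0.938 to 0.981. Depth was estimated from value steps, with 59.8 to 69.1% of values within 0.2 of a whole fragment, and is approximate. Alternatives were another pseudocount (0.1), no filter, a filter at 0.3 RPKM, quantile normalization, median-centring, a replicate block, the compared groups alone and leaving libraries out. Gene positions are from GENCODE on mm10, and promoter sequences are RefSeq's, GRCm38.p6.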

Additional observations from a re-analysis of the deposited data

Results flagged for a closer look

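The DKO change differed between the ages, by a test of the difference itself (change at P7 minus change at P3, limma with Benjamini-Hochberg adjustment over 14772 genes), for 21 of the 58 tested members, where 22.9% of all genes passed. Of the 21, 8 could be tested only because they were high in P3 DKO, and Irx1 only through P7 Ctrl. Without the filter 38 of 101 passed, where 8.62% of all symbols had a more negative and 7.52% a more positive change at P7.
For the genes that fell at P7 the difference was -3.37 for Barhl2 (SE 0.36, adjusted p = 0.000691), -2.69 for Prrx2 (adjusted p = 0.00244), -2.66 for Dlx3 (adjusted p = 0.000315), -2.53 for Irx3, -2.23 for Irx1, -2.03 for Alx4, -1.93 for Hoxb7, -1.90 for Dlx4, -1.74 for Pax8 and -1.36 for Hoxb8. Of these, Prrx2 and Dlx3 also fell at P3, and the others did not pass there. These calls held in all 16 alternative settings, except that of Hoxb8, which ended in 7.
For the genes that rose at P3 it was -1.66 for Hoxc4, -1.58 for Hoxc10, -1.34 for Hoxc8, -1.30 for Hoxc9, -1.30 for Pax5, -1.19 for Tlx2, -1.09 for Hoxa3, -1.05 for Hoxc13, -1.02 for Alx1 and -0.95 for Meis3. Of these, Hoxc4 held in all 16 settings. The call ended in 3 settings for Hoxc9, 5 for Hoxc10, 7 for Pax5 and Hoxc13, 8 for Hoxc8, 9 for Alx1, 10 for Tlx2 and 11 for Hoxa3 and Meis3. Lhx5, which passed at neither age, differed by -1.03 (SE 0.33, adjusted p = 0.048), a call that ended in 10 settings.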

How the results depend on the processing

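At P7 the count of members called in DKO against Ctrl, 16, stayed within 11 to 19 under every alternative. In P3 DKO against P3 Ctrl the 16 calls became 4 with a pseudocount of 0.1, 41 without the filter, 38 with a filter at 0.3 RPKM, 6 (4 higher, 2 lower) after quantile normalization, 26 without both libraries rich in Sertoli markers, 0 with the compared groups alone, and 0 to 8 with 1 library left out. In P7 Ctrl against P3 Ctrl the 15 became 7 (3 higher, 4 lower) after quantile normalization, 23 without both libraries, 29 with the compared groups alone and 2 to 5 with 1 library left out. In P7 DKO against P3 DKO the 49 became 85 without the filter and 78 with the filter at 0.3 RPKM, and were 40 to 49 with 1 library left out. In P3 DKO against P3 Jmjd1bKO the 31 became 59 without the filter, 54 at 0.3 RPKM, 20 after quantile normalization, 19 without both libraries, 0 with the compared groups alone and 0 to 35 with 1 library left out. In P3 Ctrl against P3 WT the 1 became 2 with the other pseudocount, 2 without the filter, 2 at 0.3 RPKM, 0 after quantile normalization, 0 after median-centring, 10 without both libraries, 0 with the compared groups alone, and 0 to 0 with 1 library left out. For the difference between ages the 21 became 38 without the filter, 38 at 0.3 RPKM, 13 after quantile normalization, 33 without both libraries and 10 to 25 with 1 library left out. The causes were not tested. The comparisons of the single knockouts with P3 Ctrl, with each other, and of P3 DKO with P3 Jmjd1aKO gave 0 under each alternative run.

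Replicate numbers were not used to pair the samples in the main fit. Of 21 pairs of groups, 7 had a correlation of same-numbered deviations over 0.1 and 2 had one below -0.1 (range -0.13 to 0.58). Some same-numbered libraries were thus alike, and replicate 2 of P3 Jmjd1aKO and of P3 Jmjd1bKO shared high Sertoli and Leydig markers. With a replicate block the counts were 17 at P7 DKO, 18 at P3 DKO, 15 in Ctrl across age, 49 in DKO across age, 37 against P3 Jmjd1bKO, 4 against P3 WT and 27 for the difference between ages. The log2 change of Barhl2 in P3 DKO against P3 Jmjd1aKO, 0.18, ran from -0.16 (adjusted p = 0.898 in limma, without P3 DKO replicate 2) to 0.52 (without P3 DKO replicate 1) with 1 library left out, and did not pass. With 1 library left in a group, that library is assumed to vary as the other groups do. Depth limits values near 0, where 1 fragment on 1500 nucleotides is up to 0.0487 RPKM.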
